A study of Mus musculus with 6 samples.

Results

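Fragments of the nuclear-encoded valine tRNAs made up 1654 of the 38798 tRNA-derived small RNA sequences (tsRNAs) counted in primary mouse pulmonary artery smooth muscle cells. A sequence was taken as a member where all of its annotations named a mature nuclear valine tRNA (mature-tRNA-Val-AAC, mature-tRNA-Val-CAC or mature-tRNA-Val-TAC, after the anticodon). The nuclear mature tRNAs as a whole gave 31715 sequences, of which tRNA-Gly gave 2683, tRNA-Glu 2439 and tRNA-Lys 2085, and mitochondrial tRNA-Val gave a further 418. The members were 15 to 45 nt long, held 316858 counts over 6 libraries, and 768 of them had at least 10 counts. Wild-type cells were kept at 3% O2 for 24 h (hypoxia, 3 libraries) or under standard culture conditions (normoxia, 3 libraries), and both groups were called biological replicates without saying whether they came from separate animals. The table holds no mRNA by which the cell type could be checked. The small RNA had been treated with enzymes that take off modifications which block adapter ligation or reverse transcription (Pandora-seq), and the study looked for tsRNAs that respond to hypoxia.

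A tRNA is made by RNA polymerase III as a precursor, trimmed at both ends, given a CCA tail by an enzyme and modified at many bases, and the tail carries the amino acid to the ribosome. Ribonucleases, angiogenin among them, can cut a mature tRNA in its anticodon loop and leave a long 5' and a long 3' fragment, while cuts in the D and T loops leave shorter pieces. Valine tRNAs, with those of glycine, glutamate and lysine, are known sources of long 5' fragments in mammalian cells.

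The full tRNA was pieced together from overlapping fragments of the table, so that each member could be placed by position from the first base. Capitals mark the anticodon and the CCA tail, and both tRNAs had 73 encoded bases and 76 with the tail.
assembled tRNA-Val-CAC: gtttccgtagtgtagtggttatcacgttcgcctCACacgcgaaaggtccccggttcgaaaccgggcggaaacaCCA
assembled tRNA-Val-TAC: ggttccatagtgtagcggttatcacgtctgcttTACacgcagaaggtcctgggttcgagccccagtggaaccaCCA
They differed at 17 positions, starting with T2G, G7A and T16C (the base of the CAC form first, then its position, then the base of the TAC form). All 1654 members could be placed with at most 3 mismatches, and the 1004 that matched exactly held 67.7% of the counts. RefSeq's GRCm38.p6 table (the assembly also called mm10) lists 22 nuclear tRNA-Val genes, 8 for AAC, 11 for CAC and 3 for TAC, spread over 9 chromosomes with 10 on chromosome 13. The 3 TAC genes are n-TVtac1 at chr19:12011931-12012003, n-TVtac2 at chr19:12012266-12012338 and n-TVtac3 on the X chromosome at chrX:160766110-160766182. Fragments were not assigned to single genes here, because no gene sequences were used, and the substituted forms named next were not checked against the gene copies.

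The fragments that carry most of the signal, or that stood farthest from 0 between the groups, are shown next. Capitals mark anticodon bases (positions 34 to 36), the CCA tail and bases that differ from the assembled tRNA.
short 5' fragment, positions 1 to 15 with C6T: gtttcTgtagtgtag
short 5' fragment, positions 1 to 17 with C6T: gtttcTgtagtgtagtg
short 5' fragment of TAC, positions 1 to 18: ggttccatagtgtagcgg
long 5' fragment, positions 1 to 30: gtttccgtagtgtagtggttatcacgttcg
long 5' fragment of AAC, positions 1 to 33 with C6T and T27C: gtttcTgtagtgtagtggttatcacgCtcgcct
long 5' fragment of CAC, positions 1 to 34: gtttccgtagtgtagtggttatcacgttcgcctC
long 3' fragment, positions 38 to 69: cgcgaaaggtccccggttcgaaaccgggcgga
full 3' fragment without the tail, positions 37 to 73: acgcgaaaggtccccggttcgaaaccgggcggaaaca
CCA fragment with A69G, positions 62 to 76: cgggcggGaacaCCA
CCA fragment of TAC, positions 61 to 76: cccagtggaaccaCCA
anticodon loop fragment of CAC, positions 31 to 46: cctCACacgcgaaagg
short fragment after the anticodon, positions 37 to 53: acgcgaaaggtccccgg
short fragment after the anticodon loop with A43G, positions 39 to 54: gcgaGaggtccccggt
internal 5' part fragment, positions 7 to 30: gtagtgtagtggttatcacgttcg
The substitutions in these names give the base of the assembled tRNA, its position from the 5' end, and the base of the fragment.

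Library totals ran from 330787 to 2563749 counts, and the libraries numbered 1 were the shallowest of each group. These 2 libraries also stood apart in make-up. Fragments that start at a tRNA's first base held 36.6% of their counts in hypoxia 1 and 34.6% in normoxia 1, against 53.0 to 58.6% in the other 4. Same-numbered libraries of the 2 groups deviated together, so a fit with the replicate number as a block was run beside the fit by group alone. The deviations were taken from group means, so a shared shift of only the libraries numbered 1 would also move the other libraries together. Correlations between libraries of different numbers were not taken, so pairing by number among these other libraries was not shown. Counts are reads without molecular identifiers, and the intervals and tests cover the spread between these libraries.

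All nuclear tRNA-Val fragments together came to 39785, 39047 and 36425 counts per 1000000 tsRNA counts of the library (CPM) in hypoxia 1 to 3 and to 37964, 32669 and 30062 CPM in normoxia 1 to 3. Each hypoxia library was above its same-numbered normoxia library, by 1.05, 1.20 and 1.21 times, but hypoxia 3 lay below normoxia 1, so the groups overlapped. The means were 38419 ± 1766 CPM (SD, n = 3) and 33565 ± 4027 CPM (SD, n = 3), and an exact permutation test of the 6 values gave p = 0.2, where 0.1 is the smallest that 3 against 3 can give. In edgeR's quasi-likelihood fit over 47 amino acid sums the log2 change was 0.37 with an SE of 0.29 (adjusted p = 0.985), beside a median of 0.05 over all sums. The replicate block gave 0.34 with an SE of 0.11 (edgeR adjusted p = 0.143). DESeq2 with the same block, an alternative chosen after seeing the data, called the sum higher at 0.46 (adjusted p = 0.00206), in a fit that called 19.1% of all sums higher and 2.13% lower. Its size factors moved the median of all sums to 0.15, and the tRNA-Val sum stood 0.31 above that median in it, as against 0.32 in the fit by group alone. With the block and these size factors in edgeR, also tried after seeing the data, the log2 change was again 0.46, without a call (edgeR adjusted p = 0.0739). Scaled by library size only, the edgeR log2 change by group alone was 0.19 with an SE of 0.18, beside a median of -0.08 over all sums.

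A further 179 sequences carried a tRNA-Val label beside that of another tRNA, in 176 cases tRNA-Gly-ACC, and were left out by the rule. They held 228476 counts. Among them were the 7 short 5' fragments of 15 to 21 nt that start with the common form of tRNA-Val, C at position 6, and these alone came to 22240, 19966 and 20462 CPM in hypoxia and 19254, 24932 and 33947 CPM in normoxia. The 5' end members of 15 to 19 nt are therefore the C6T form and the TAC form, apart from 1 CAC sequence of 15 nt with 31 counts. With the excluded sequences counted as tRNA-Val, the log2 change of the sum was 0.08 without the block and 0.10 with it.

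As a part of the nuclear mature tRNA counts, tRNA-Val held 4.70, 4.16 and 3.88% in hypoxia and 4.44, 3.50 and 3.25% in normoxia. The share was higher in hypoxia in 3 of 3 same-numbered pairs, and the groups overlapped (exact permutation p = 0.3). With the excluded sequences counted as tRNA-Val the mean difference went from 0.51 points to -0.0050 points. tRNA-Val was the eighth largest of 23 nuclear sums. By the root mean square difference of log2 CPM, centred on each tRNA's own mean over the 6 libraries, the nearest of the 21 other nuclear sums compared were tRNA-Leu (0.14), tRNA-His (0.14) and tRNA-Lys (0.17). Mitochondrial tRNA-Val, a transcript of the mitochondrial genome with its own fragments, stood at 57179, 30629 and 32784 CPM in hypoxia and 37402, 28078 and 23324 CPM in normoxia. Its log2 change was 0.54 with an SE of 0.17 (edgeR adjusted p = 0.552).

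Most tRNA-Val counts could not be given to 1 anticodon, because the AAC and CAC tRNAs share most of their sequence. The 547 shared sequences held 73.7% of the counts, and 538 of them were shared by AAC and CAC and 9 by CAC and TAC. TAC alone had 477 sequences and 14.3% of the counts, CAC alone 546 and 10.3%, and AAC alone 84 and 1.67%. Among counts assigned to 1 anticodon, TAC held 60.2, 52.3 and 52.6% in hypoxia and 59.9, 56.5 and 55.4% in normoxia. CAC held 37.1, 40.3 and 40.7% against 36.9, 37.4 and 38.5%, higher in hypoxia in 3 of 3 pairs (exact permutation p = 0.3). AAC held 2.72, 7.39 and 6.74% against 3.18, 6.13 and 6.16%, and its lowest values in both groups were those of the libraries numbered 1. Over 21 shares compared between the groups, the smallest Benjamini-Hochberg adjusted p was 0.995. An exact test of 3 against 3 libraries cannot give a p below 0.1. No share could therefore have passed 0.05, and the tests do not decide whether any share differed.

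Counts that only the AAC tRNA could give came almost all from its 5' part, while its 3' fragments, where present, mostly carry the labels of both AAC and CAC. The 3' end class labelled AAC alone had 2 sequences and 5 counts. Of the 5286 counts unique to AAC, 98.4% ended at or before position 33, just ahead of the anticodon. Among the 681 members that span positions 34 to 36, with 24269 counts, the first anticodon base was C in 76.7% of counts, T in 23.2% and A in 0.136% (33 counts of 11 sequences). No member had G there, which at this depth allows a share of up to 0.0124%, by counting error only. As background, the adenosine at this place in tRNA-Val-AAC is normally deaminated to inosine, which reverse transcriptase reads as G. Whether such reads were lost when reads were matched to the tRNAs was not tested.

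The members fell into 134 fragments that start at the first base (5' end class, 58.9% of counts), 1459 internal fragments (39.3%), 5 that carry the whole CCA tail (1.53%) and 56 that end at the last encoded base (3' end class, 0.283%). The 5' end class came to 18648, 22901 and 22324 CPM in hypoxia and 15735, 19593 and 19270 CPM in normoxia. Each hypoxia library was above its normoxia partner, by 1.19, 1.17 and 1.16 times, while hypoxia 1 lay below normoxia 2 and 3. This direction rests on the rule for members: with the excluded sequences shared with other tRNAs counted in, the class came to 40888, 42867 and 42786 CPM against 34989, 44525 and 53216 CPM, lower in hypoxia in pairs 2 and 3. Internal fragments stood at 20187, 15478 and 13500 CPM against 21624, 12419 and 10269 CPM. Here the 2 libraries numbered 1 were highest and differed in the other direction from the other pairs.

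**Figure D1:**
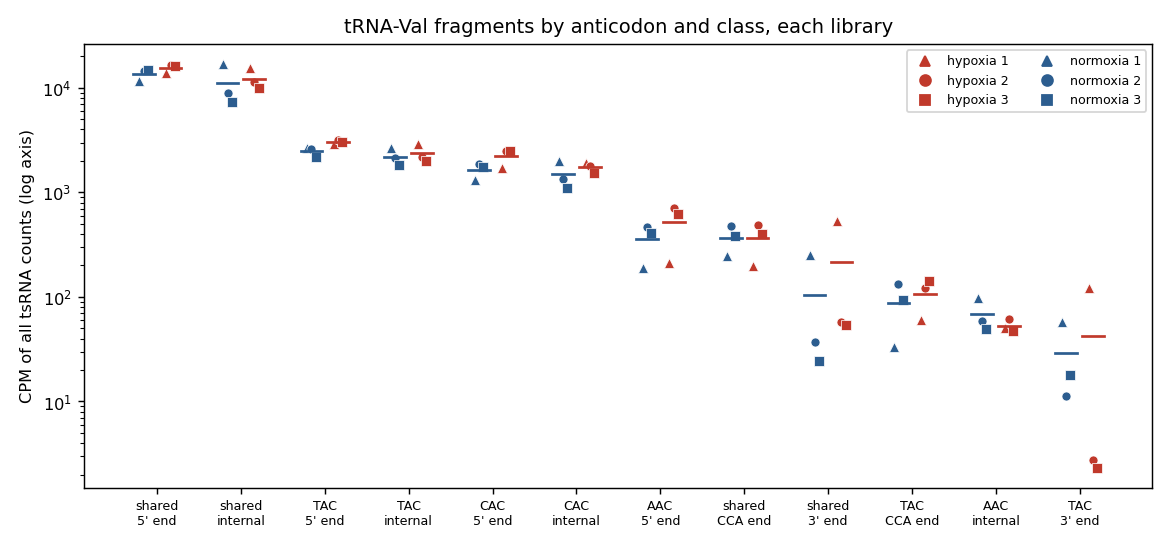
CPM of all tsRNA counts (log axis) for the 12 tested tRNA-Val groups by anticodon set and fragment class, with 1 marker per library and a bar at each group's mean (n = 3); shared means sequences of more than 1 valine anticodon. The 5' end groups of CAC and of TAC have their hypoxia values above the normoxia value of the same number in all 3 pairs, and triangles (libraries numbered 1) stand apart in most groups.

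By anticodon and class, 12 of 14 groups had enough counts to be tested. The 5' end fragments of CAC, most of which reach the anticodon since shorter ones are shared with AAC, came to 1710, 2465 and 2490 CPM in hypoxia and 1309, 1872 and 1733 CPM in normoxia. The hypoxia library was higher in 3 of 3 pairs, with overlap only through hypoxia 1. The log2 change was 0.48 with an SE of 0.62 by group alone (edgeR adjusted p = 0.997) and 0.47 with an SE of 0.12 with the replicate block (edgeR adjusted p = 0.315).

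The 5' end fragments of TAC gave 2885, 3190 and 3060 CPM against 2672, 2617 and 2169 CPM. All 3 hypoxia libraries lay above all 3 normoxia libraries. The log2 change was 0.36 with an SE of 0.47 (edgeR adjusted p = 0.997), and 0.34 with an SE of 0.13 with the block (edgeR adjusted p = 0.404). The 5' end fragments of AAC gave 210, 716 and 622 CPM against 187, 470 and 406 CPM, and the shared ones 13843, 16531 and 16152 CPM against 11566, 14635 and 14961 CPM. In both sets every pair was higher in hypoxia, and the lowest library of each group was the one numbered 1.

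No group passed an adjusted p of 0.05 in edgeR with or without the block, and none of all 247 anticodon and class sums did (percent called 0). DESeq2 and limma voom called none of them either. At an unadjusted edgeR p of 0.05, 0 of the 12 passed in the fit by group alone, against 0.81% higher and 0.405% lower over all 247. With the block 4 of 12 did, all higher: the 5' end groups of AAC, CAC and TAC and the shared 3' end group. Over all 247 sums the block called 6.88% higher and 4.86% lower in that way. Of the 12 log2 changes by group alone, 11 were above 0, as were 56.3% of all 247, with a median of 0.28 beside 0.08. The 12 groups share libraries and normalization and are not separate tests of 1 question.

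**Figure D2:**
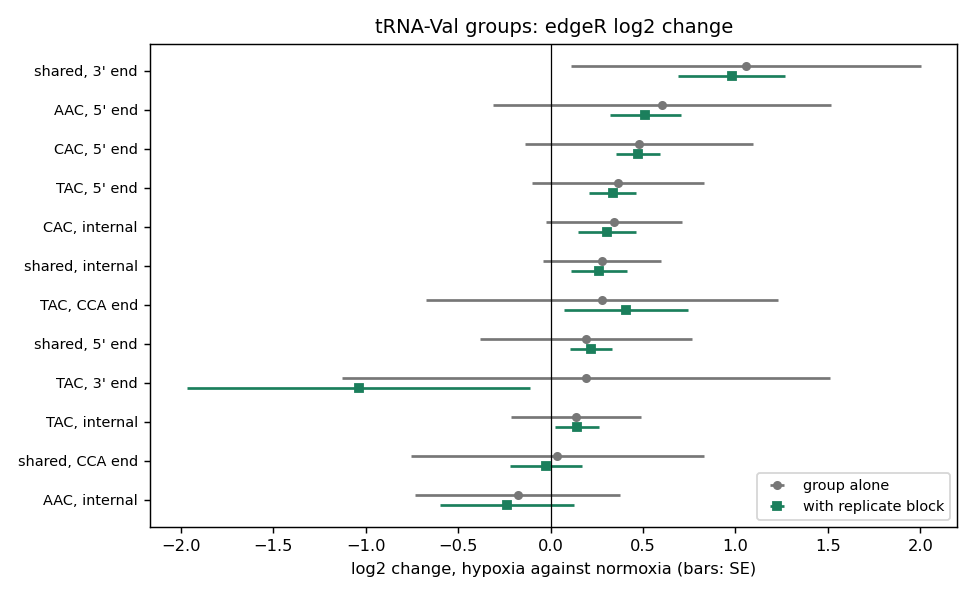
edgeR log2 change of hypoxia against normoxia for the 12 tested tRNA-Val groups (points, with bars of 1 SE), by group alone and with the replicate number as a block. Most estimates lie above 0, the bars by group alone reach or cross 0 in 11 of the 12 groups, and the block shortens the bars with little movement of the estimates, except for the TAC 3' end group (0.19 by group alone, -1.04 with the block).

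Along the tRNA, 5' end fragments stopped at a few positions. Positions 15, 17 and 18 held 48.1% of their counts and positions 30 to 34, the end of the anticodon stem and the first bases of its loop, held 34.6%. Fragments of TAC stopped at position 18 in 69.4% of counts and at 15 in 17.2%. Those of AAC alone stopped at 33 in 67.3%, and those of CAC alone at 34 in 45.04%, at 41 in 23.2% and at 36 in 15.02%.

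**Figure D3:**
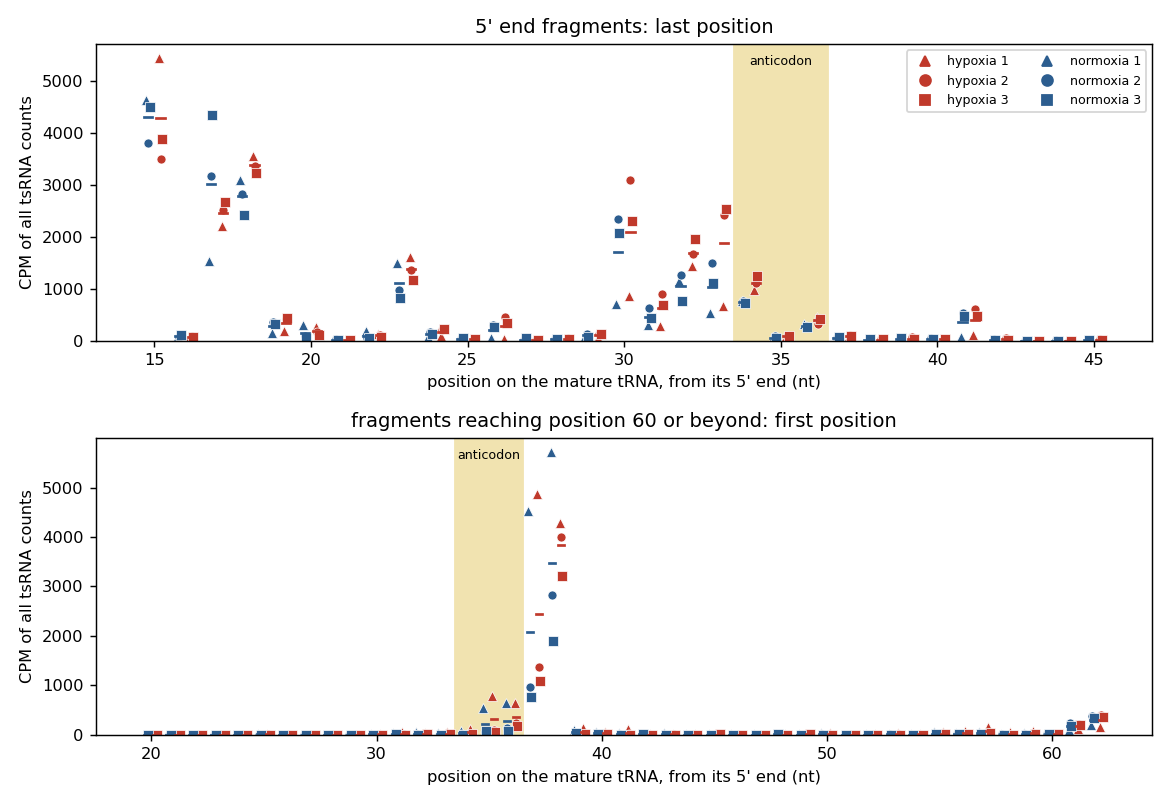
CPM of all tsRNA counts by the last position of 5' end fragments (upper panel) and by the first position of fragments without the first base that reach position 60 or beyond (lower panel), with 1 marker per library, a bar at each group's mean (n = 3) and the anticodon shaded. 5' fragments end mainly at 15, 17, 18, 23 and 30 to 34, and fragments of the 3' part start mainly at 37 and 38.

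By length, the 5' end fragments of 30 to 34 nt gave 4247, 9192 and 8712 CPM in hypoxia and 3437, 6494 and 5089 CPM in normoxia. The pairs differed by 1.24, 1.42 and 1.71 times, all higher in hypoxia, and hypoxia 1 lay below normoxia 2 and 3. The log2 change was 0.69 with an SE of 0.85 (edgeR adjusted p = 0.995), and 0.63 with an SE of 0.17 with the block (unadjusted p = 0.0046 and edgeR adjusted p = 0.121). Fragments of 35 to 40 nt gave 615, 636 and 687 CPM against 441, 524 and 476 CPM, with every hypoxia library above every normoxia library. Their blocked log2 change was 0.53 with an SE of 0.20 (edgeR adjusted p = 0.246). Those of 15 to 19 nt had 11471, 9871 and 10284 CPM against 9505, 10208 and 11697 CPM, higher in hypoxia in 1 of 3 pairs.

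Over 15 tested groups by class and length, 0 passed an adjusted p of 0.05 in edgeR with or without the block. Among all 527 such sums the block called 0.38% higher and 0% lower, and the fit by group alone called 0%. At an unadjusted p of 0.05 the block gave 5 of 15 higher and 0 lower, where it gave 9.3% higher and 6.07% lower over all sums. All 15 log2 changes by group alone were above 0, as were 57.7% of all 527. By group alone 0 of the 15 passed an unadjusted p of 0.05, where 1.52% of all sums were higher and 0.569% lower, and DESeq2 and limma voom called 0 after adjustment.

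**Figure D4:**
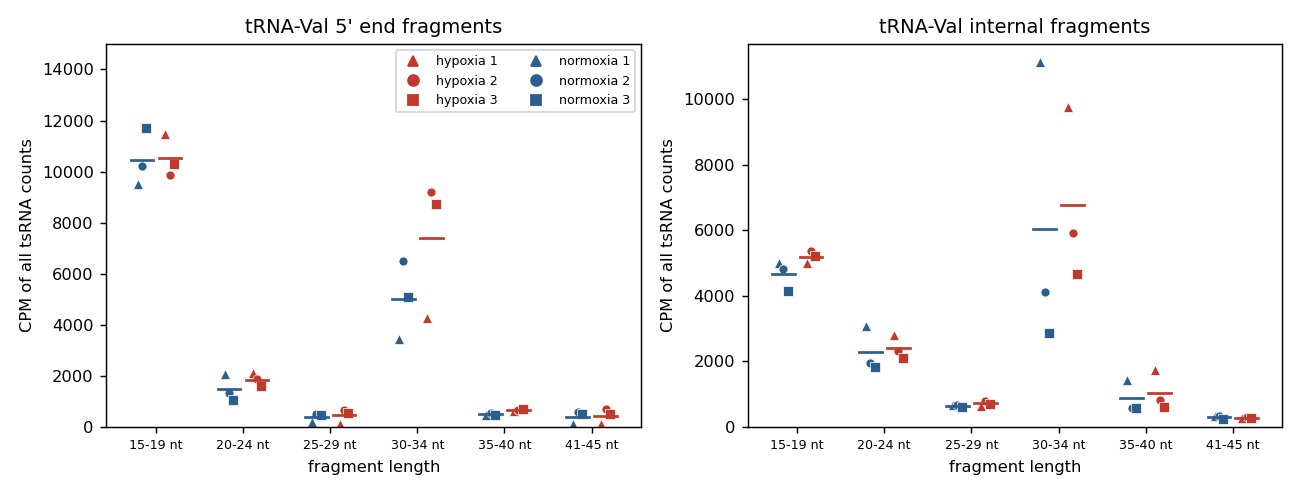
CPM of all tsRNA counts for tRNA-Val 5' end fragments (left) and internal fragments (right) by length, with 1 marker per library and a bar at each group's mean (n = 3). 5' end fragments of 30 to 34 nt ran from 4247 to 9192 CPM in hypoxia and from 3437 to 6494 CPM in normoxia, while those of 15 to 19 nt overlapped throughout.

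Among 5' end fragments of at least 30 nt, the place of the last base was also set out within each library. Position 30 took 17.4, 29.5 and 23.3% in hypoxia and 17.7, 31.01 and 34.2% in normoxia, lower in hypoxia in 3 of 3 pairs (exact permutation p = 0.5). Position 33 took 13.5, 22.99 and 25.6% against 13.2, 19.7 and 18.1%, higher in 3 of 3 pairs (exact permutation p = 0.4). The first pair differed little in both, and the groups overlapped in both. Of all nuclear 5' end fragments of 30 to 40 nt, tRNA-Val made up 8.29, 9.84 and 7.69% in hypoxia and 7.34, 6.85 and 7.45% in normoxia. These values did not overlap, which gave the smallest possible exact permutation p of 0.1 (adjusted p = 0.995 over 21 shares).

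The most abundant member was the C6T fragment of positions 1 to 15, gtttcTgtagtgtag, at 5159, 2995 and 3364 CPM in hypoxia and 4356, 3290 and 4028 CPM in normoxia. Its values overlapped, and 1 of 3 pairs was higher in hypoxia. The C6T fragment of positions 1 to 17, gtttcTgtagtgtagtg, had 2112, 2440 and 2612 CPM against 1469, 3099 and 4271 CPM. It varied more among the normoxia libraries than between the group means. C6T was a minor form in longer fragments: of AAC or CAC 5' fragments of at least 22 nt, 8.43 to 12.5% carried it. The short 5' fragments of the common form are left out by the rule for members, so the members cannot give the C6T share among short fragments.

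The 18-nt fragment of TAC, ggttccatagtgtagcgg, was at 2286, 2224 and 2186 CPM in hypoxia and 2125, 1739 and 1391 CPM in normoxia. Its groups did not overlap, and hypoxia spread over 50.3 CPM (SD, n = 3) while normoxia spread over 367 CPM (SD, n = 3). The log2 change was 0.38 with an SE of 0.48 (edgeR adjusted p = 0.9999). The 16-nt fragment of TAC, ggttccatagtgtagc, which is 2 bases shorter, ran the other way at 11.8, 14.4 and 14.6 CPM against 21.2, 22.1 and 31.9 CPM, without overlap. Its log2 change was -0.90 with an SE of 0.68, from 6 to 52 counts per library.

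Of the long 5' fragments, that of positions 1 to 30, gtttccgtagtgtagtggttatcacgttcg, had 778, 2792 and 2099 CPM in hypoxia and 647, 2135 and 1946 CPM in normoxia. Every pair was higher in hypoxia by 1.08 to 1.31 times, and the 2 libraries numbered 1 were lowest. The CAC fragment of positions 1 to 34, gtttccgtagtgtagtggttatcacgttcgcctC, which ends on the first anticodon base, had 907, 1014 and 1144 CPM against 698, 701 and 636 CPM. All 3 hypoxia libraries lay above all 3 normoxia libraries. Its log2 change was 0.60 with an SE of 0.51 (edgeR adjusted p = 0.9999), and 0.58 with an SE of 0.28 with the block (edgeR adjusted p = 0.782). The AAC fragment of positions 1 to 33, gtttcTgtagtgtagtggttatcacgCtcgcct, had 114, 472 and 406 CPM against 96.7, 258 and 217 CPM, higher in 3 of 3 pairs and overlapping through hypoxia 1.

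The 3' part of the tRNA appeared mainly as long fragments that start in the anticodon loop, just after the anticodon, and stop before the end. The 157 members that start at positions 35 to 40 and reach position 60 or beyond held 45572 counts, and 92.2% of these counts started at position 37 or 38. They came to 10775, 5751 and 4577 CPM in hypoxia and 11566, 4035 and 2888 CPM in normoxia. The libraries numbered 1 were highest in both groups, and the pairs differed by 0.93, 1.43 and 1.59 times. An exact permutation test gave p = 0.7.

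These fragments did not reach the terminus in most cases: 94.1% of their counts stopped at position 68 or 69, inside the acceptor stem. Position 69 took 52.4, 85.2 and 85.9% in hypoxia and 60.4, 84.6 and 80.9% in normoxia, and position 68 took 34.98, 11.1 and 10.3% against 32.9, 10.4 and 10.1%. The libraries numbered 1 differed from the other 4 in this split, and between the groups exact permutation tests gave p = 1 for position 69 and p = 0.6 for position 68. Positions 73 to 76 took 7.73, 2.40 and 2.54% against 3.45, 3.55 and 7.03%.

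The leading one, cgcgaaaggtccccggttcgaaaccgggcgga of positions 38 to 69, had 2590, 3388 and 2657 CPM in hypoxia and 3570, 2428 and 1626 CPM in normoxia. Pairs 2 and 3 were higher in hypoxia and pair 1 lower, and its log2 change was 0.27 with an SE of 0.51 (0.041 to 0.56 with 1 library left out). The fragment of positions 37 to 73, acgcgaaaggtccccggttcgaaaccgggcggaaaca, the most abundant of the shared 3' end class, had 125, 12.5 and 7.58 CPM against 57.4, 4.96 and 2.45 CPM. Each pair was higher in hypoxia by 2.18 to 3.09 times, on 4 to 64 counts per library, and the libraries numbered 1 were far above the others of their group (log2 change 1.29, SE 1.28).

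At the 3' terminus, 64.6% of the counts that reached position 73 or beyond ended with the whole CCA tail, 20% after its first C, 3.44% after its second C and 11.9% at the last encoded base. All 5 members with the whole tail were 15 to 19 nt long. The long 3' fragments above had no counts at positions 75 and 76, so the share with the tail describes short fragments. The whole tail was on 18.1, 73.7 and 72.4% in hypoxia and on 32.9, 73.3 and 63.0% in normoxia. The libraries numbered 1 were low in both groups, and the group means of 54.7 and 56.4% were close beside SDs of 31.7 and 21.0 (n = 3, exact permutation p = 0.9). The leading CCA fragments, cgggcggGaacaCCA at 153, 354 and 288 CPM against 181, 350 and 301 CPM and cccagtggaaccaCCA of TAC at 52.9, 84.25 and 71.2 CPM against 27.2, 102 and 68.7 CPM, overlapped between the groups. The first carries A69G, a form that the assembled CAC tRNA does not have. Of all nuclear 3' end and CCA end fragments, tRNA-Val made up 1.42, 1.36 and 1.25% in hypoxia and 1.06, 1.33 and 1.03% in normoxia, higher in 3 of 3 pairs with overlap only through normoxia 2 and hypoxia 3 (exact permutation p = 0.2).

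Of the 1654 members, 324 passed the filter on low counts, and these held 95.7% of the tRNA-Val counts. None was called at an adjusted p of 0.05 in edgeR by group alone, nor were any of all 6452 tsRNAs tested (percent called 0). At an unadjusted p of 0.05, 1 of 324 was higher and 0 lower in edgeR, against 0.279% higher and 0.418% lower over all tsRNAs, and the background over all sequences was low in each fit. DESeq2 gave 2 higher and 0 lower (0.535% and 0.787% over all), and so did limma voom (0.868% and 0.821% over all). The replicate block called 0 of 324, with 0.477 as the smallest adjusted p, where it called 0.0775% higher and 0.0775% lower over all. Unadjusted, it gave 19 higher (5.86%, against 3.41% over all) and 2 lower (0.617%, against 2.98%).

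The estimates of the tested members leaned upward. The log2 change was above 0 in 222 of 324 (68.5%, against 51.3% of all tested tsRNAs), with a median of 0.25 beside 0.02 over all. In CPM, 76 of 324 were higher in hypoxia in all 3 pairs (23.5%, against 15% of all tested) and 21 were lower in all 3 (6.48%, against 13.4%). Groups did not overlap with hypoxia higher in 16 (4.94%, against 2.32%) and with hypoxia lower in 5 (1.54%, against 2.51%). Many members overlap each other in sequence and are not independent.

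By the smallest unadjusted p among members with a mean of at least 10 CPM, the highest were 4 fragments of the middle of the tRNA. The anticodon loop fragment of CAC, cctCACacgcgaaagg, which spans positions 31 to 46, had 15.7, 24.96 and 83.4 CPM in hypoxia and 12.1, 11.3 and 9.20 CPM in normoxia. Its groups did not overlap, on 4 to 143 counts per library, and hypoxia 3 alone was far above the others (log2 change 2.04, SE 0.88). The fragment of positions 37 to 53, acgcgaaaggtccccgg, had 180, 112 and 188 CPM against 118, 73.5 and 39.9 CPM, higher in 3 of 3 pairs with overlap through hypoxia 2 (log2 change 1.14, SE 0.56).

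The A43G fragment of positions 39 to 54, gcgaGaggtccccggt, had 8, 95 and 21 counts against 5, 2 and 2, which is 15.7, 37.1 and 12.3 CPM against 15.1, 0.902 and 1.23 CPM. Pair 1 was level, and pairs 2 and 3 were far higher in hypoxia (log2 change 2.59, SE 1.14, edgeR adjusted p = 0.9999). It was the 1 member called under any of the other settings tried for single tsRNAs: with replicates 2 and 3 alone and the block its log2 change was 4.31 with an SE of 1.11 (edgeR adjusted p = 0.0315), in a fit that called 0.0923% of tsRNAs higher and 0.308% lower. The CAC fragment gtggttatcacgttcgcctC of positions 15 to 34, whose last base is the first of the anticodon, had 9.79, 19.5 and 21.6 CPM against 6.05, 7.66 and 1.84 CPM, without overlap (log2 change 1.78, SE 0.87). These values rest on 5, 50 and 37 counts against 2, 17 and 3.

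On the lower side, the fragment of positions 7 to 30, gtagtgtagtggttatcacgttcg, had 17.6, 30.4 and 16.9 CPM in hypoxia and 45.3, 62.2 and 48.5 CPM in normoxia. It was lower in 3 of 3 pairs without overlap, with a log2 change of -1.27 and an SE of 0.67 (edgeR adjusted p = 0.9999). It ends at the same base as the fragment of positions 1 to 30, which was higher in hypoxia in 3 of 3 pairs. The TAC fragment catagtgtagcggttatcacgtctg of positions 6 to 30 had 3.92, 5.85 and 17.5 CPM against 15.1, 29.3 and 12.9 CPM, on 2 to 65 counts per library. It overlapped through hypoxia 3 and had a log2 change of -1.003 (SE 0.90, and -2.08 to -0.25 with 1 library left out). The CAC fragment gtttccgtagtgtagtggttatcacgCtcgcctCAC of positions 1 to 36, with T27C, had 15.7, 5.07 and 8.17 CPM against 15.1, 11.3 and 29.5 CPM. Its log2 change was -1.16 (SE 0.78), from 5 to 48 counts per library. The other members named by the rule lay within 0.10 of 0 on the log2 scale: ttccatagtgtagcgg of TAC (0.06), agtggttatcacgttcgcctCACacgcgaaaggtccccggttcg of CAC (-0.09) and ttatcacAttcgcct of AAC with G26A (0.03).

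By the rule for members, in all 6 libraries a larger share of tRNA-Val counts than of other nuclear tRNA counts lay in fragments of 30 to 40 nt. A smaller share lay in fragments that end at the 3' terminus. Fragments of 30 to 40 nt held 42.3, 42.5 and 40.3% of tRNA-Val counts in hypoxia and 43.9, 35.9 and 30.1% in normoxia, whereas over the other nuclear mature tRNAs they held 12.6 to 17.2%. The mean difference was 23.6 points, higher in 6 of 6 libraries, with an exact sign-flip p of 0.0714 after adjustment over 16 such comparisons, the smallest that these 6 libraries gave. These sign-flip tests take the 6 libraries as independent, although those with the same number may not be. Against tRNA-Lys the difference was 23.9 points in 6 of 6 libraries, and against tRNA-Gly and tRNA-Glu it was 8.46 points in 5 of 6 and 7.08 points in 4 of 6. The 7 excluded short 5' fragments of 15 to 21 nt (19254 to 33947 CPM) are counted with the other nuclear tRNAs. Leaving them out of tRNA-Val raises its 30 to 40 nt share and lowers that of the other nuclear tRNAs. The size of these differences therefore rests on the rule, and it was not taken with the excluded sequences counted as tRNA-Val. The 3' end and CCA end classes together held 1.59 to 2.39% of tRNA-Val counts, with a difference from the other nuclear tRNAs of -4.27 points, and were lower in 6 of 6 libraries (adjusted exact sign-flip p = 0.0714). The difference was -3.60 points against tRNA-Lys, in 6 of 6 libraries, but only -0.75 points against tRNA-Gly and -0.83 points against tRNA-Glu, with tRNA-Val lower in 4 of 6 and 5 of 6 libraries (adjusted exact sign-flip p = 0.154 and 0.15).

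The 5' end share of tRNA-Val, 46.9, 58.6 and 61.3% in hypoxia and 41.4, 59.97 and 64.1% in normoxia, was 5.28 points above that of the other nuclear tRNAs in 6 of 6 libraries (adjusted exact sign-flip p = 0.0714). Taken over same-numbered pairs, the exact sign-flip p was 0.25. With sequences of at least 18 nt only, the difference was -0.90 points (exact sign-flip p = 0.469), so the higher share was seen only with fragments of 15 to 17 nt counted. With the sequences shared with other tRNAs counted as tRNA-Val it was 21.2 points, so its size rests on how short shared sequences are assigned. Against tRNA-Gly it was 15.5 points in 6 of 6 libraries, against tRNA-Glu 7.65 points in 4 of 6 (adjusted exact sign-flip p = 0.154), and against tRNA-Lys -1.77 points, with tRNA-Val higher in 2 of 6 (adjusted exact sign-flip p = 0.719). The sequences shared by tRNA-Val and tRNA-Gly-ACC are in neither the tRNA-Val nor the tRNA-Gly sum. They are counted with the other nuclear tRNAs, including the short 5' fragments of the common form of tRNA-Val. The difference between tRNA-Val and the other nuclear tRNAs was 1.91 points larger in hypoxia than in normoxia (exact permutation p = 0.2).

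**Figure D5:**
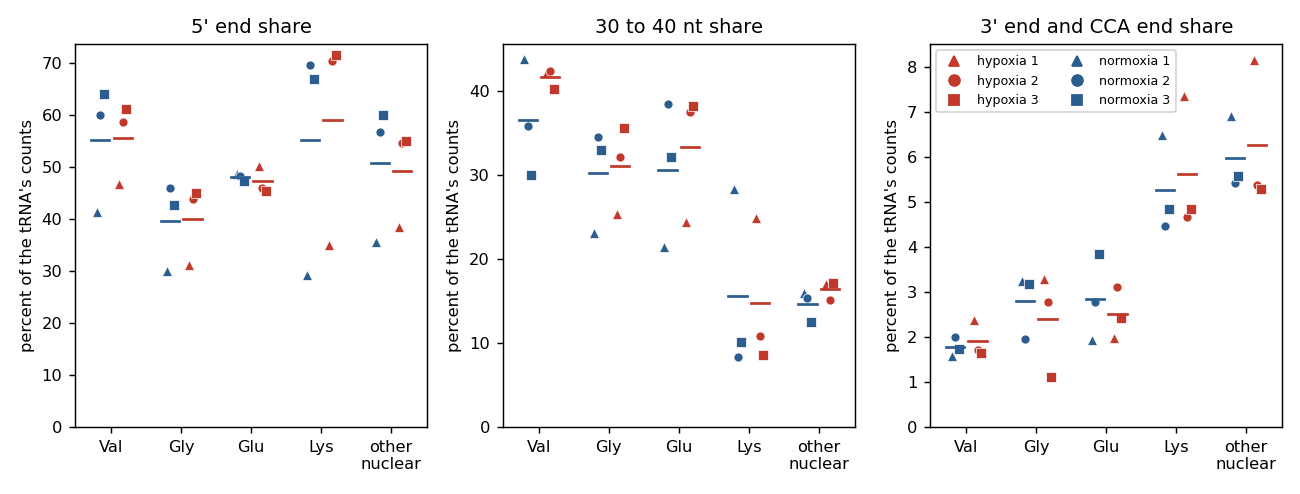
Shares of each tRNA's counts (percent) held by 5' end fragments, by fragments of 30 to 40 nt, and by 3' end and CCA end fragments, for tRNA-Val, tRNA-Gly, tRNA-Glu, tRNA-Lys and all nuclear mature tRNAs other than tRNA-Val, with 1 marker per library and a bar at each group's mean (n = 3). tRNA-Val has 30.1 to 43.9% of counts in fragments of 30 to 40 nt, above the 12.6 to 17.2% of the other nuclear tRNAs, and 1.59 to 2.39% in 3' end and CCA end fragments. Sequences that tRNA-Val shares with another nuclear tRNA are counted with the other nuclear tRNAs.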

How the data were processed

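One deposited table gave the counts of each tsRNA sequence with its tRNA annotations in 6 libraries. Per the labels, the authors prepared Pandora-seq libraries from TRIzol RNA, and per the submitters' processing notes the build was mm10. For the aligner and the annotation nothing is stated. The authors deposited whole-number counts, and 0 columns were left unused.

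Counts per tsRNA, and sums per amino acid, anticodon and class, or class and length, were fitted over the whole table with edgeR 4.0.16 (R 4.3.3; TMM, filterByExpr, quasi-likelihood F-test, Benjamini-Hochberg adjustment, threshold 0.05), with DESeq2 1.42.0 and limma 3.58.1 voom as alternatives. The edgeR fit was tested on simulated data. Same-numbered libraries correlated in their deviations from the group means (0.79, 0.54 and 0.46), which takes the numbers as pairs. The values for libraries 2 and 3 do not show pairing by number, since a shared shift of the libraries numbered 1 would raise them. Shares used exact two-sided permutation tests of 3 against 3 libraries, or sign flips over 6 libraries. Each fragment was placed, with at most 3 mismatches, on a tRNA joined from fragments that overlap by at least 12 nt.

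Named tsRNAs were any past the threshold, the 5 most abundant, the most abundant tested one of each anticodon set and class, and the 4 higher and 4 lower with the smallest unadjusted p at a mean of at least 10 CPM, 1 per nested set. Comparisons used tRNA-Gly, tRNA-Glu and tRNA-Lys, known sources of long 5' fragments. The members and lists were chosen with earlier results of these data known. End-position shares and the shares among long 5' and 3' fragments of all nuclear tRNAs were added after seeing the data.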

Additional observations from a re-analysis of the deposited data

How the results depend on the processing

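No tRNA-Val tsRNA or group passed an adjusted p of 0.05 in edgeR, DESeq2 or limma voom under the planned scalings, filters and left-out libraries, except that replicates 2 and 3 alone with the replicate block gave 1 call (gcgaGaggtccccggt). The replicate block changed no other planned call, and the log2 change of all tRNA-Val fragments lay between 0.21 and 0.58 with each library left out. Scaling by library size only took this change to 0.19, and to 0.20 with the replicate block, a setting added after seeing the data. DESeq2 with the block, added after seeing the data, made the sum of all tRNA-Val fragments a call at 0.46. DESeq2's size factors with the block in edgeR gave 0.46 without a call (edgeR adjusted p = 0.0739). The cause of these changes was not tested. Depth limits the less abundant fragments, which rest on few counts in the libraries numbered 1, named ones with a mean above 10 CPM among them. In hypoxia 1 and normoxia 1, for example, cctCACacgcgaaagg had 8 and 4 counts.

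With replicates 2 and 3 alone, the hypoxia minus normoxia difference turned to -2.07 points for the 5' end share, 4.96 points for the CCA share and 2.83 points for long 3' fragments ending at position 69. With sequences shared with other tRNAs included, it was -0.0050 points for the share of nuclear counts and -2.92 points for the 5' end share. The 5' end share of tRNA-Val minus that of the other nuclear tRNAs was 4.37 points with replicates 2 and 3 alone, -0.90 points at 18 nt and longer, and 5.28 points in the replicate block over pairs, where fewer values raise the smallest possible p.

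Leaving out each library in turn gave ranges of -6.43 to 4.89 points for the 5' end share, -13.4 to 16.7 for the CCA share, -0.53 to 1.91 for the AAC share and 4.67 to 5.72 for the 5' end share minus that of other nuclear tRNAs. For long 3' fragments the ranges were -7.11 to 8.56 at position 68, -8.23 to 10.3 at 69 and -2.21 to 0.72 at 73 to 76. The tRNA-Val share of all nuclear 5' end fragments of 30 to 40 nt was 0.77 to 1.85 points higher in hypoxia throughout.

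Of 21 named tsRNAs, 12 kept the sign of their log2 change in each of the scalings, filters, tools and left-out libraries tried. The range over left-out libraries crossed 0 for gtttcTgtagtgtag (-0.22 to 0.14), gtttcTgtagtgtagtg (-0.83 to 0.073), gtttccgtagtgtagtggttatcacgttcg (-0.24 to 0.68), cgggcggGaacaCCA (-0.44 to 0.31), ttccatagtgtagcgg (-0.52 to 0.21), cccagtggaaccaCCA (-0.47 to 0.52), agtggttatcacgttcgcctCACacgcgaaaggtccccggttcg (-0.37 to 0.092), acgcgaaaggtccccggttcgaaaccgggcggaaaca (-0.40 to 3.08) and ttatcacAttcgcct (-1.27 to 0.73). In addition ttccatagtgtagcgg turned to -0.098 in limma voom, -0.088 with the replicate block, and -0.38 and -0.39 with replicates 2 and 3 alone without and with it. The CCA fragment cccagtggaaccaCCA turned to 0.090 by library size only, 0.095 in limma voom and 0.14 with the replicate block. For ttatcacAttcgcct the values were -0.38 in limma voom, -0.17 with the replicate block and -0.11 with replicates 2 and 3 alone and the block.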
